A study of Canis lupus familiaris with 8 samples.

Results

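Heat shock protein transcripts of the heart were examined in dogs with hyperhomocysteinemia (HHcy), an excess of homocysteine in the blood, and in control dogs. The genes were 5 small heat shock proteins (HSPB1, HSPB6, HSPB7, HSPB8 and CRYAB) and 5 larger chaperones or their partners (HSPA8, HSPD1, HSPE1, HSP90AA1 and HSP90AB1). Every probe set to which the platform annotation gives exactly one of these symbols was taken, which found all 10 genes on 21 of the 23913 probe sets of the Affymetrix canine array. A further 2 probe sets name HSP90AA1 or HSP90AB1 together with a second gene and were not used. The HHcy group was 4 male dogs given methionine in their drinking water for 2 weeks, and the control group was 4 male dogs without it, with RNA of both groups taken at 2 weeks. Dogs of both groups weighed 23 to 27 kg, and breed, age and the heart chamber sampled are not given in the sources used here. Each dog gave cardiac RNA for 1 array, and with 4 arrays per group the number of arrays limits the precision. HHcy dogs are numbered 5 to 8 and control dogs 1 to 4.

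Heat shock proteins are chaperones, proteins that hold or refold other proteins. Small heat shock proteins bind unfolding clients without using ATP, and in cardiac muscle they are known for guarding desmin, titin and other filaments. HSP70 and HSP90 family members refold or mature clients with ATP, and HSPD1 with its lid HSPE1 forms the folding chamber of mitochondria. Many of these genes are targets of the heat shock factor HSF1, and several small members are known for their high level in heart and skeletal muscle.

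One array stood apart and must be named before the results. The 9 cardiomyocyte markers measured summed to a signal of 15429 on HHcy 6, where the other HHcy dogs had 193734 to 218661 and the control dogs 176689 to 282675. The 3 smooth muscle markers measured (MYH11, ACTA2 and TAGLN) summed to 60260.5 on HHcy 6, where the other HHcy dogs had 4688 to 5842 and the control dogs 1614 to 6965. The labelled tissue, cardiac, was therefore borne out by its defining markers on 7 arrays and not on HHcy 6, where the troponin TNNT2 had a signal of 24.5 and the light chain MYL3 one of 27.4. These were the lowest, and the other cardiomyocyte markers measured were reduced but not absent there, from 393 for TNNI3 to 6889 for MYH7. The log2 ratio of 3' to 5' control signals, averaged for actin and GAPDH as a sign of RNA quality, had means of 3.38 ± 2.28 in HHcy dogs and 0.90 ± 0.90 in control dogs (SD, 4 dogs each, exact two-sided permutation p = 0.0857, with 0.0286 as the lowest this design allows). The ratio was highest on HHcy 6, at 6.31, HHcy 5 came next with 4.02, and control 2 had the lowest, -0.43. Before log2, the actin ratio was 599.6 on HHcy 6 and 15.3 on HHcy 5. The GAPDH ratio was 10.5 on HHcy 6 and 17.2 on HHcy 5, so by GAPDH alone HHcy 5 was highest. Fold changes are therefore given with and without HHcy 6. In bulk tissue, fewer cells of a type and less RNA per cell cannot be told apart.

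None of the heat shock protein probe sets passed the test of HHcy against control. Of the 21 probe sets, 20 passed the filter on dim values, and limma with Benjamini-Hochberg adjustment over 14301 probe sets called 0 of the 20, where it called 0.0979% of all probe sets tested. At an unadjusted p under 0.05 limma found 6 of the 20, all lower in HHcy, where 5.94% of all probe sets were lower, 11.9% higher and 17.8% either at that p. The smallest adjusted p among the 20 was 0.191, for a dim probe set of HSP90AB1. The median log2 fold change (HHcy over control) was -0.72 over the 20, against 0.15 over all tested probe sets. Without HHcy 6 these medians were -0.32 and 0.11, limma again called 0 of the 20 (3 at an unadjusted p under 0.05, all lower, against 14.9% of all probe sets and 6.24% in that direction) and 0.126% of all, and the smallest adjusted p was 0.276 (range over the alternatives 0.145 to 0.922). Several of the 20 share a gene. Taking only each gene's brightest probe set, 7 of the 10 fold changes lay below 0 with all arrays, against 5723 of all 14301, and 3 of the 10 without HHcy 6, against 5998. The median of these 10 was -0.40 with all arrays and 0.075 without HHcy 6. At an unadjusted limma p under 0.05 were 1 of the 10, HSPB6, with all arrays, and 0 without HHcy 6.

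**Figure D1:**
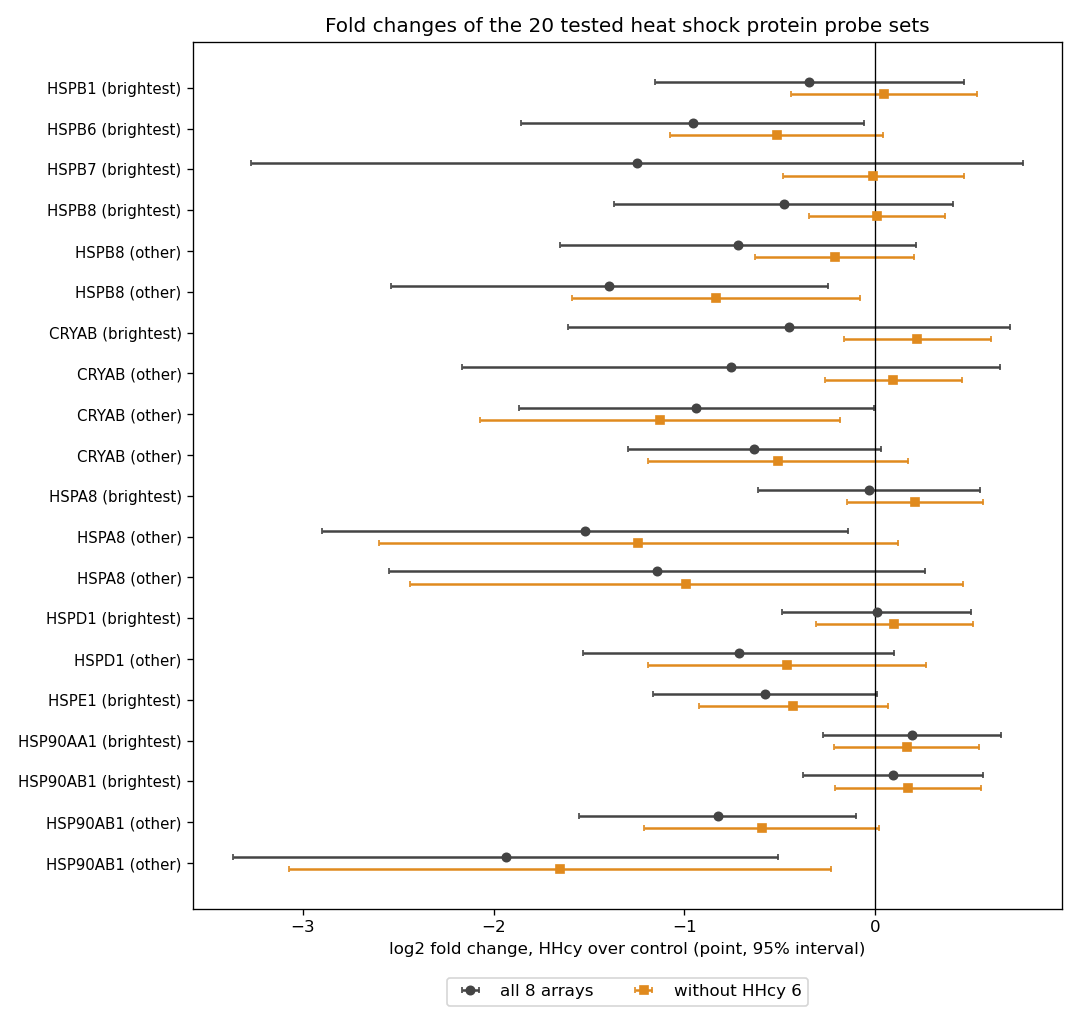
Log2 fold change of HHcy over control (x axis) for each of the 20 tested probe sets, with its 95% interval, from all 8 arrays (grey circles) and without HHcy 6 (orange squares). No probe set passed the adjusted test. The brightest probe sets of HSPB1, HSPB8, CRYAB and HSPA8 lie below 0 with all arrays and above 0 without HHcy 6.

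HSPB1 (HSP27) is an actin-binding small heat shock protein found in most tissues. Its probe set had signals of 4168, 1486, 3552 and 5898 in HHcy dogs 5 to 8, against 5080.4, 3594, 3838 and 4846 in control dogs 1 to 4. The highest and the lowest of the 8 values were both HHcy, HHcy 8 and HHcy 6, so the groups overlapped. HSPB1 had a log2 fold change of -0.34 ± 0.37 (SE, limma adjusted p 0.631) with all arrays and 0.047 ± 0.22 without HHcy 6.

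HSPB6 (HSP20), a small heat shock protein of muscle that protein kinases A and G phosphorylate, had the smallest unadjusted p of the 10 brightest probe sets. Its signals were 1089, 427, 1533 and 2032 in HHcy dogs, against 2336, 2028, 2715 and 1691 in control dogs. All 4 HHcy values lay below the control mean of 2192 ± 437 (SD, n = 4), while HHcy 8 lay above 2 of the control dogs. HSPB6 had a log2 fold change of -0.96 ± 0.41 (SE, 95% interval -1.85 to -0.056), with an unadjusted p of 0.0392 and a limma adjusted p of 0.260. Without HHcy 6 it was -0.52 ± 0.26, and without both HHcy 5 and HHcy 6 it was -0.29, these being the arrays of the highest 3'/5' ratios. A fit with that ratio as a further term gave -0.12 (limma adjusted p 0.973). The ratio was itself higher on average in HHcy dogs, so this fit cannot separate ratio from group.

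HSPB7 (cvHSP) is a small heat shock protein of heart and skeletal muscle that binds filamin C. Its signals were 7492, 303, 11856 and 11895 in HHcy dogs, against 12226, 8075, 11267 and 9890.3 in control dogs. HHcy 6 was 34.2-fold below the control mean, and the other 3 HHcy dogs spanned nearly the range of the controls. For HSPB7 the log2 fold change was -1.25 ± 0.93 (SE, limma adjusted p 0.478) with all arrays and -0.0079 ± 0.22 without HHcy 6, with a 95% interval of -0.48 to 0.47.

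HSPB8 (HSP22) works with BAG3 to pass damaged filament proteins to autophagy. On its brightest probe set, 1592980_s_at, the signals were 18539, 5006, 18293 and 21883 in HHcy dogs, against 21059, 21421, 18196 and 17079.8 in control dogs. HHcy 6 was 3.88-fold below the control mean, while HHcy 8 was the highest of the 8 arrays. On it HSPB8 had a log2 fold change of -0.48 ± 0.41 (SE, limma adjusted p 0.538) with all arrays and 0.012 ± 0.16 without HHcy 6. A second bright probe set, 1589113_s_at, had 11988, 3425, 14201 and 16152 in HHcy dogs, against 17841, 19981, 14221 and 13642 in control dogs. All 4 HHcy values there lay below the control mean on the log2 scale, and the log2 fold change was -0.72 ± 0.43 with all arrays and -0.21 ± 0.19 without HHcy 6.

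CRYAB (alpha B-crystallin) binds desmin and titin, and human CRYAB mutations cause a desmin-related myopathy. On its brightest probe set, 1594631_s_at, the signals were 26641, 3799.9, 21292 and 26308 in HHcy dogs, against 26889.8, 19363, 19484 and 19537 in control dogs. HHcy 6 was 5.61-fold below the control mean, and the other 3 HHcy arrays lay above 3 of the 4 controls. On it CRYAB had a log2 fold change of -0.45 ± 0.53 (SE, limma adjusted p 0.662) with all arrays and 0.22 ± 0.18 without HHcy 6. A second bright probe set, 1586077_s_at, had 23277, 2169, 19899.6 and 26598 in HHcy dogs, against 24789.8, 21151, 19989 and 20740.4 in control dogs. It showed the same single low array, with a log2 fold change of -0.75 ± 0.65 with all arrays and 0.097 ± 0.17 without HHcy 6.

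**Figure D2:**
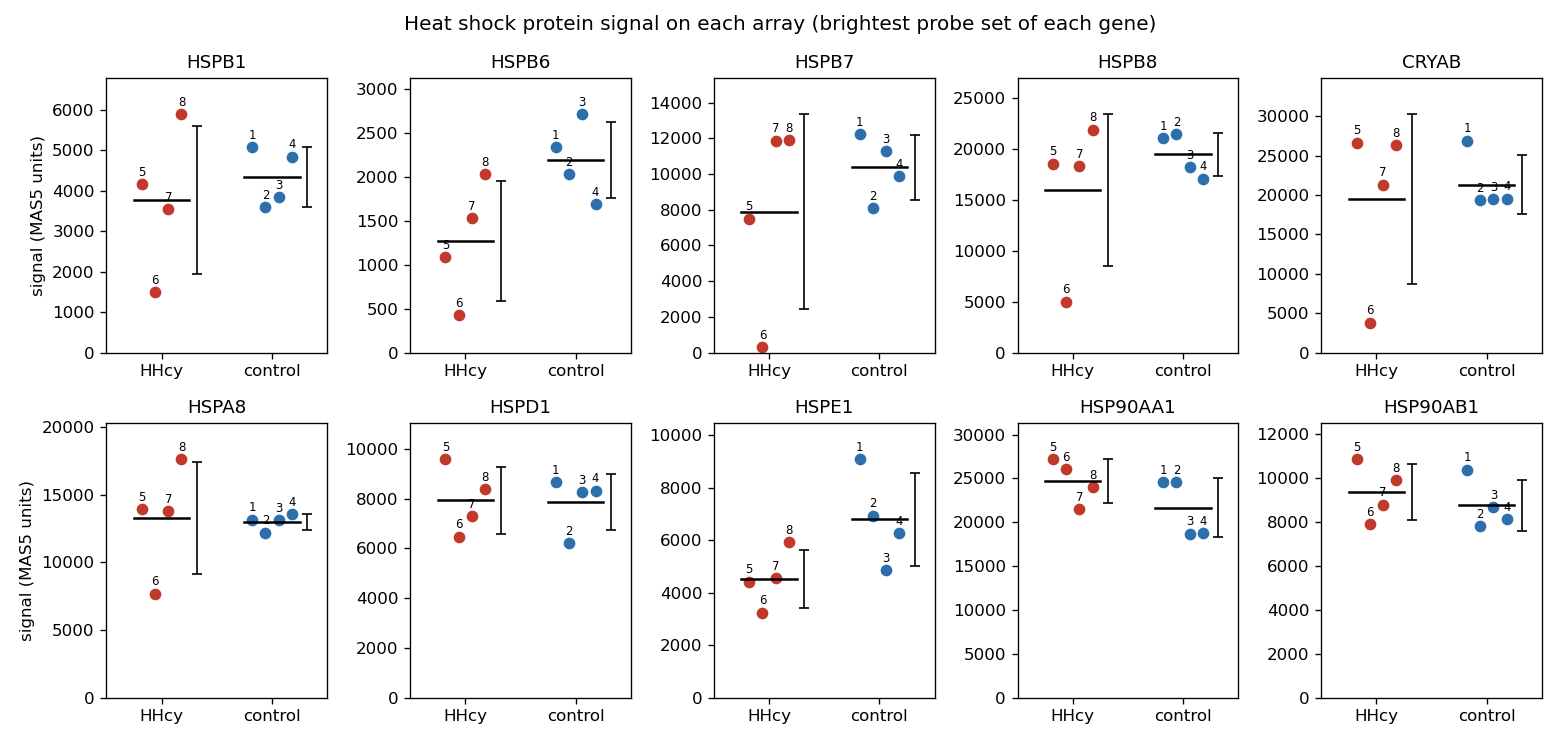
Signal in MAS5 units (y axis, from 0) of the brightest probe set of each of the 10 genes, with 1 point per dog labelled by its number, HHcy in red on the left and control in blue on the right. Black lines are group means and bars are SD (n = 4). HHcy 6 is the lowest HHcy point for all genes except HSP90AA1, and lies at 303 for HSPB7 and 3799.9 for CRYAB.

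On their brightest probe sets, 4 of the 5 larger chaperones or partners had a log2 fold change within 0.20 of 0. HSPA8 (HSC70), the HSP70 that cells make without stress, had 13941, 7691, 13804 and 17628 in HHcy dogs, against 13153, 12184, 13121 and 13547 in control dogs. HHcy 6 was the lowest array, 1.69-fold below the control mean, and the other 3 HHcy arrays all lay above the 4 controls. HSPA8 had a log2 fold change of -0.031 ± 0.27 (SE, 95% interval -0.61 to 0.55, limma adjusted p 0.960) with all arrays. Without HHcy 6 it was 0.21 ± 0.16, with a 95% interval of -0.15 to 0.57. Such separation, with every HHcy array higher, was seen in 9.05% of all probe sets without HHcy 6.

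HSPD1 (HSP60) and HSPE1 (HSP10) form the mitochondrial chaperonin, and their genes lie next to each other in the RefSeq gene table of assembly UU_Cfam_GSD_1.0. HSPD1 had 9594, 6473, 7295 and 8399 in HHcy dogs, against 8662, 6217, 8278 and 8321 in control dogs. The lowest array was control 2, HHcy 6 was next, and the groups spanned much the same range. HSPD1 had a log2 fold change of 0.0092 ± 0.23 (SE, 95% interval -0.49 to 0.51, limma adjusted p 0.985) with all arrays and 0.10 ± 0.19 without HHcy 6. HSPE1 had 4408, 3229, 4545 and 5916 in HHcy dogs, against 9080.4, 6931, 4857 and 6265 in control dogs. All 4 HHcy dogs lay below the control mean of 6783 ± 1759 (SD, n = 4), but HHcy 8 lay above control 3. The HSPE1 log2 fold change was -0.58 ± 0.27 (SE, 95% interval -1.17 to 0.0099, limma adjusted p 0.287) with all arrays and -0.43 ± 0.23 without HHcy 6, so that array did not set its direction. Across the 8 arrays the log2 signals of HSPD1 and HSPE1 had a Pearson correlation of 0.219, and of -0.18 without HHcy 6. Both are given as a description over dogs of both groups.

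HSP90AA1, the stress-inducible form of cytosolic HSP90, had 27194, 26074, 21466 and 23973 in HHcy dogs, against 24552, 24564, 18715 and 18764 in control dogs. It was the one gene of the 10 for which HHcy 6 was among the high arrays, and HHcy 5 was the highest. Its log2 fold change was 0.20 ± 0.21 (SE, 95% interval -0.27 to 0.66, limma adjusted p 0.636) with all arrays and 0.17 ± 0.17 without HHcy 6, and it was -0.17 with median scaling. HSP90AB1, the constitutive form, had 10868, 7906, 8796 and 9899 on its brightest probe set in HHcy dogs, against 10387, 7810.3, 8680.0 and 8144 in control dogs. The groups overlapped over most of their range, and HHcy 6 lay close to control 2. For HSP90AB1 the log2 fold change was 0.096 ± 0.22 (SE, 95% interval -0.38 to 0.57, limma adjusted p 0.834) with all arrays and 0.17 ± 0.18 without HHcy 6, and it was -0.27 with median scaling. HSP90AA1 and HSP90AB1 are close relatives in sequence, and whether their probe sets detect both was not checked here.

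The low values on HHcy 6 differed between the genes. On the brightest probe sets, all 5 small heat shock proteins were lowest of the 8 arrays on HHcy 6, by -4.97 (HSPB7), -2.47 (CRYAB), -2.27 (HSPB6), -1.95 (HSPB8) and -1.52 (HSPB1) log2 units against the control mean. On the other 7 arrays the same probe sets lay between -0.97 and 0.46. The 5 larger chaperones or partners lay between -1.03 (the partner HSPE1) and 0.28 (HSP90AA1) on HHcy 6, and 2 of the 5, HSPE1 and HSPA8, were lowest there. Over 1 log2 unit below the control mean were 6 of the 10 brightest probe sets, against 13.6% of all tested probe sets. Only 0.245% of all tested probe sets were as low on HHcy 6 as HSPB7, against 46.1% for HSP90AA1.

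The marker lists moved on the same array. The 9 cardiomyocyte markers had a median of -4.73 log2 units on HHcy 6, reaching -8.49 for MYL3, against medians from -0.21 to 0.077 in the other HHcy dogs and from -0.31 to 0.38 in control dogs. The least lowered of these markers on HHcy 6 was MYH7, at -2.17. On their brightest probe sets, HSPB7, CRYAB and HSPB6 thus lay within the range of these markers on HHcy 6, and HSPB8 and HSPB1 above all of them. HSPB8 lay within that range on 1589113_s_at, at -2.24, and on 1582681_at, at -3.07. CRYAB lay within it on 1586077_s_at, at -3.30, and above it on 1597268_at, at -0.37, and 1594630_s_at, at -1.01. The 3 smooth muscle markers had a median of 4.11 there, where the other HHcy dogs had 0.33 to 0.57 and control dogs -1.24 to 0.99. Fibroblast and macrophage markers were also above the control mean on HHcy 6, with medians of 1.63 over 4 genes and 1.51 over 6, and on HHcy 5, with 1.41 and 1.47, and HHcy 7, with 1.46 and 1.22. HHcy 8 had 0.15 and 0.70, and the control dogs had -1.08 to 0.60 for fibroblast and -0.50 to 0.44 for macrophage markers. The fibroblast marker COL3A1 lay at 0.068 on HHcy 6, with a log2 fold change of -0.48 over all arrays. Endothelial markers had a median of -0.86 on HHcy 6, the value of TEK, which was too dim to test. The 2 of 3 bright enough to test were PECAM1, at 0.66, and VWF, at -1.38. Skeletal muscle markers had a median of 1.16 there, the value of MYH2, also too dim to test. The 2 of 5 bright enough to test, ACTA1 and TNNI2, lay at -1.35 and -0.76. The part of these markers in the heat shock protein values was not tested. Without HHcy 6 the median log2 fold change of the 5 small heat shock proteins was 0.012, against -0.48 with it.

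**Figure D3:**
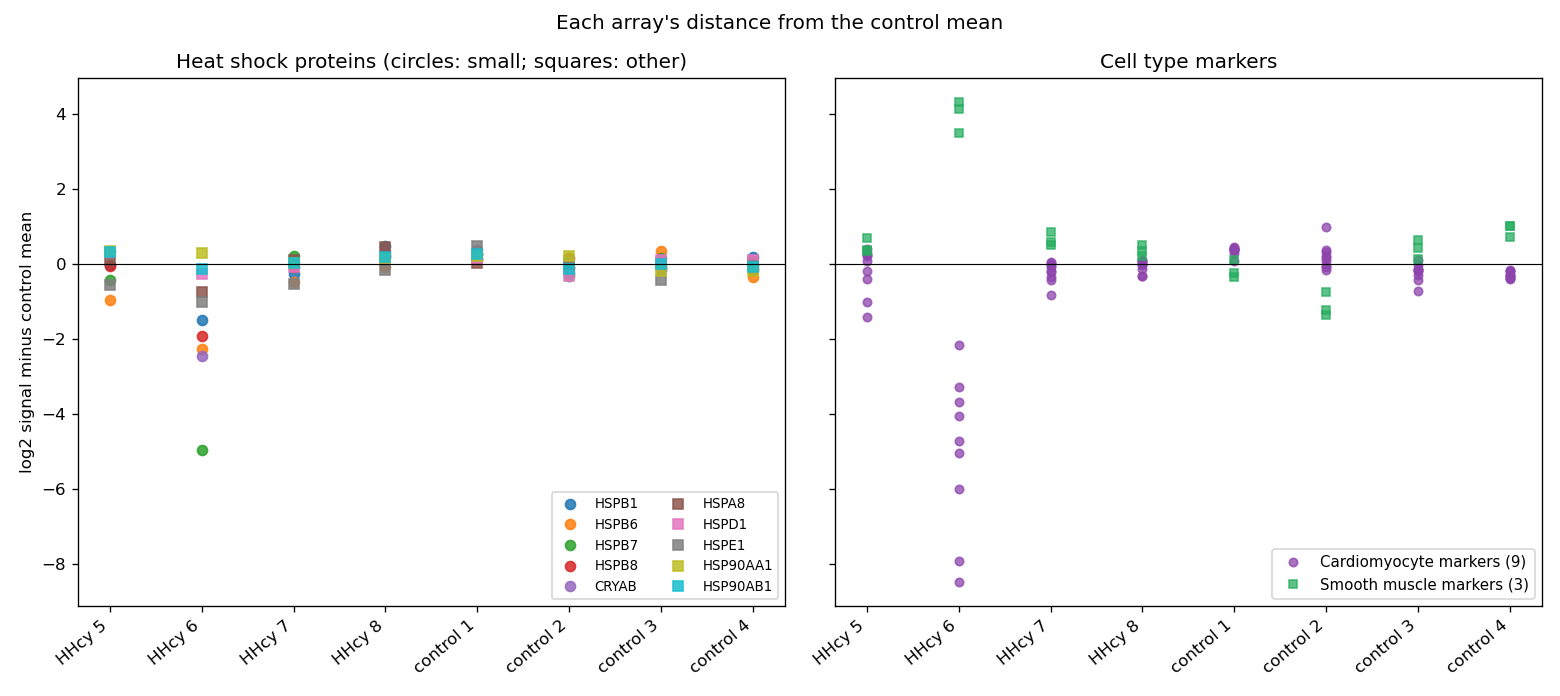
Log2 signal minus the control mean (y axis) on each array (x axis) for the brightest probe sets of the 10 heat shock protein genes (left: circles, small; squares, other) and for cardiomyocyte and smooth muscle markers (right). On HHcy 6, HSPB7 lies at -4.97 and HSP90AA1 at 0.28, cardiomyocyte markers have a median of -4.73 and smooth muscle markers one of 4.11.

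For each gene the 3 genes with the highest Pearson correlation of log2 signal over the 8 arrays, among the brightest probe sets of 5014 other genes, are a description with no test. HSPB7 was most like the caveolin CAV3 (0.995), the adaptor GRB14 (0.994) and myoglobin MB (0.993). CRYAB was most like ATP5MC1 (0.996), MYOZ2 (0.994) and NDUFA4 (0.994), and HSPB8 had troponin C, TNNC1 (0.995), in second place after LOC609068. The 5 small heat shock proteins correlated with each other at 0.823 to 0.976 over their 10 pairs with all arrays, and at -0.28 to 0.602 without HHcy 6. Of the 30 names found over 8 arrays, 4 were also found over the 7 arrays without HHcy 6, namely LOC609068 for HSPB8, the arginase ARG1 for HSPD1, the mitochondrial ribosomal protein MRPL27 for HSPE1 and PPWD1 for HSP90AA1.

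The probe sets other than the brightest of each gene gave different values. There were 10 such tested probe sets, of HSPB8, CRYAB, HSPA8, HSPD1 and HSP90AB1. All 10 had a log2 fold change below 0, with a median of -0.88, while the 2273 such probe sets of all genes with several had 52.2% below 0 and a median of -0.029. Without HHcy 6, 9 of the 10 lay below 0 with a median of -0.71. Because several of the 10 share a gene and all share the same arrays, these are counts, not independent observations, and none of the 10 passed.

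HSP90AB1 shows the gap between probe sets most widely. On 1588548_s_at the signals were 142, 107, 355 and 362 in HHcy dogs, against 935, 3684, 281 and 609 in control dogs. Control 2 was the highest by far, and control 3 lay below HHcy 7 and HHcy 8. Here the log2 fold change was -1.94 ± 0.65 (SE, limma adjusted p 0.191), against 0.096 on the brightest probe set, and it was -1.65 without HHcy 6 and -1.26 without control 2. On 1583305_at the signals were 1747, 983, 1837 and 2095 in HHcy dogs, against 2116, 5050.4, 2307 and 2708 in control dogs. It was the one probe set of the 20 on which the groups did not overlap, with every HHcy array lower, as was seen for 3.89% of all probe sets. Groups apart with HHcy higher made up 7.49% of all probe sets and 0 of the 20, and groups apart either way 11.4%. Without HHcy 6 it again was the one probe set of the 20 with every HHcy array lower, against 5.93% of all. Its log2 fold change was -0.82 ± 0.33 (SE, limma adjusted p 0.239), and -0.59 without HHcy 6.

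HSPA8 showed the same spread. On 1604124_at the signals were 257, 181, 382 and 746 in HHcy dogs, against 683, 4519, 486 and 719.9 in control dogs. On 1604131_s_at they were 188, 180.0, 303 and 417 in HHcy dogs, against 284, 3123, 288 and 468 in control dogs. Control 2 was again far above the other 7 arrays on both, although on the brightest HSPA8 probe set it was the lowest control. The log2 fold changes were -1.52 ± 0.63 and -1.14 ± 0.64 (SE, limma adjusted p 0.247 and 0.365). Without HHcy 6 they were -1.24 and -0.99, and without control 2 they were -0.82 and -0.36.

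The dim probe sets of HSPB8, HSPD1 and CRYAB completed the set. HSPB8 on 1582681_at had 261, 72.6, 455 and 667 in HHcy dogs, against 668, 1302, 617 and 713 in control dogs, a log2 fold change of -1.39 ± 0.52 (SE, limma adjusted p 0.216), and of -0.83 without HHcy 6. HSPD1 on 1588907_at had 497, 263, 522 and 665 in HHcy dogs, against 735, 1402, 446 and 779.9 in control dogs, a log2 fold change of -0.72 ± 0.37 (SE, limma adjusted p 0.333), and of -0.46 without HHcy 6. On both, control 2 was the highest and HHcy 6 the lowest array. CRYAB on 1597268_at had 93.2, 224, 82.8 and 228 in HHcy dogs, against 259, 427, 146 and 461 in control dogs, a log2 fold change of -0.94 ± 0.43 (SE, limma adjusted p 0.279), and of -1.13 without HHcy 6. CRYAB on 1594630_s_at had 205, 97.0, 113 and 136 in HHcy dogs, against 198, 185, 243 and 259 in control dogs, a log2 fold change of -0.63 ± 0.30 (SE, limma adjusted p 0.297), and of -0.51 without HHcy 6. HHcy 6 was lowest on 1594630_s_at but not on 1597268_at, and control 2 was highest on neither.

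The order of the arrays on these 10 probe sets ran against the 3'/5' ratio. Their median distance from the control mean was -1.08, -1.92, -0.80 and -0.39 log2 units on HHcy 5 to 8, against -0.16, 0.76, -0.55 and -0.11 on control 1 to 4. The log2 3'/5' ratio on these arrays was 4.02, 6.31, 1.89 and 1.29 in HHcy, against 1.43, -0.43, 1.51 and 1.09 in control. The 2 arrays with the highest ratios thus had the lowest medians, and control 2, with the lowest ratio, had the highest. Over the 2273 such probe sets of all genes, the medians were 0.040, 0.084, -0.076 and 0.043 on HHcy 5 to 8. On control 1 to 4 they were 0.044, 0.23, -0.11 and -0.068, so control 2 was again highest, but HHcy 5 and HHcy 6 were not lowest. Control 2 was the highest of the 8 arrays on 7 of the 10, on 30.9% of the 2273 such probe sets of all genes, on 0 of the 10 brightest probe sets, and on 19.0% of all tested probe sets. It was over 1 log2 unit above the next array on 3 of the 20, against 1.99% of all. With the ratio as a further term in the fit 8 of the 10 had a log2 fold change below 0, with a median of -0.15. As the ratio was higher on average in HHcy dogs, that fit cannot separate ratio from group. Where along each transcript a probe set lies was not used here, and the part of the ratio in these values was not otherwise tested.

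**Figure D4:**
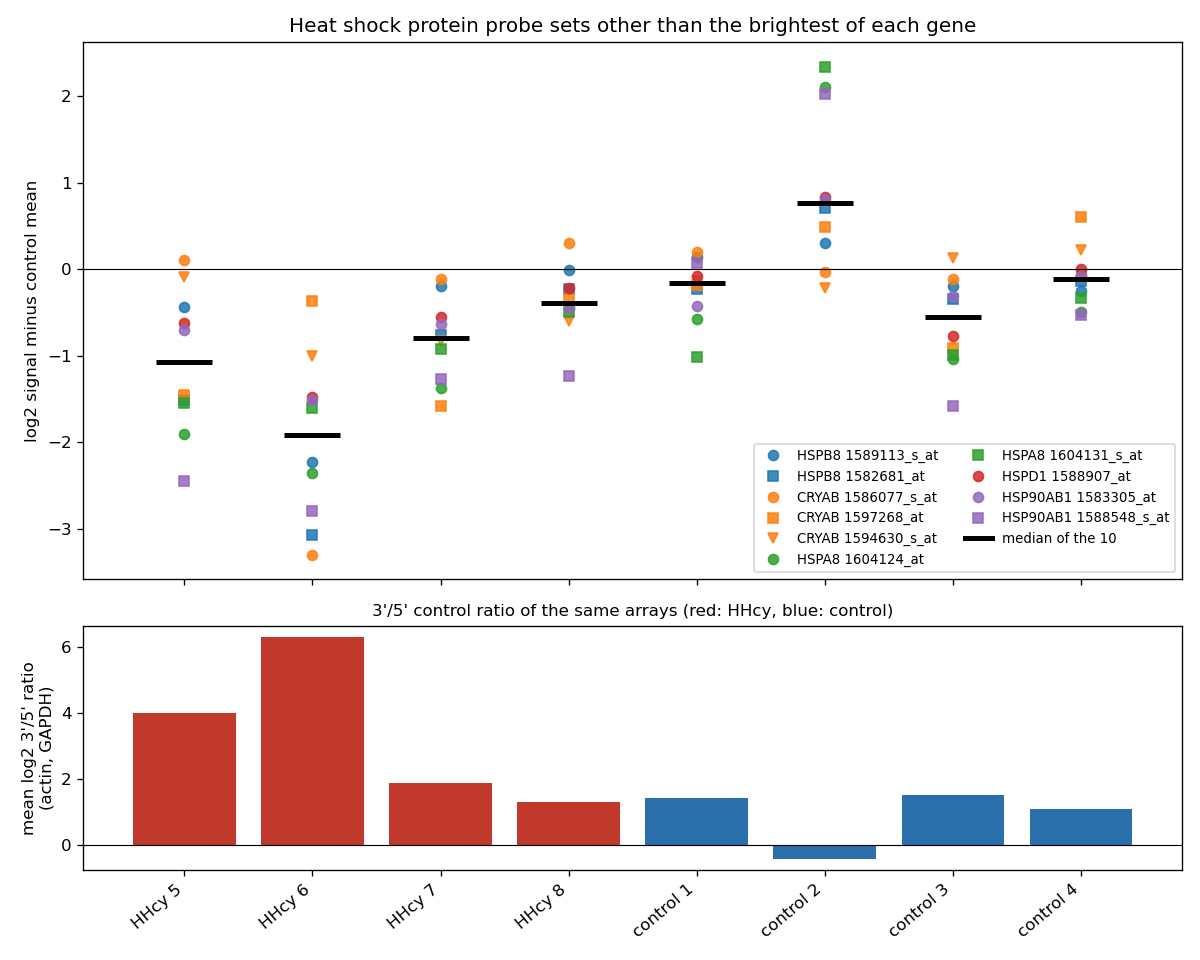
Upper panel: log2 signal minus the control mean (y axis) on each array (x axis) for the 10 tested probe sets other than the brightest of each gene, with their median as a black bar. Lower panel: the log2 3'/5' ratio on each array, averaged for actin and GAPDH. The median is lowest, at -1.92, on HHcy 6, where the ratio is 6.31, and highest, at 0.76, on control 2, where the ratio is -0.43.

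Partner genes of the chaperone network were looked at in 10 lists of 115 genes, of which 68 were on the array under a single symbol and 62 were tested on their brightest probe set. None of the 62 passed with limma, and 7 had an unadjusted p under 0.05, against 17.8% of all probe sets. Of the 62, 28 had a log2 fold change above 0 and 34 below, against 5723 of all 14301 below, and their median was -0.066, against 0.15 over all. Without HHcy 6 none of the 62 passed and the median was -0.0045.

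Among HSP90 co-chaperones 10 were tested, 2 above 0 and 8 below, with a median log2 fold change of -0.29, and of -0.11 without HHcy 6. PPP5C, a protein phosphatase that docks on HSP90, had the smallest adjusted p of all 62 partners. Its signals were 28.6, 15.8, 38.6 and 8.44 in HHcy dogs, against 185, 161, 215 and 144 in control dogs. All HHcy values lay below all controls, as for 3.89% of all probe sets, and they lay near or under the pseudocount of 24, so the size of the difference depends on it. With that pseudocount PPP5C had a log2 fold change of -2.13 ± 0.40 (SE, limma adjusted p 0.0863) and of -2.07 without HHcy 6. SMYD1, a muscle methyltransferase that binds HSP90, had 1026, 10.1, 1439 and 1801 in HHcy dogs, against 2045, 1817, 2645 and 1614 in control dogs. Its log2 fold change was -1.86 (limma adjusted p 0.344), and -0.52 without HHcy 6, the array with the signal of 10.1. The highest of the list were the immunophilins FKBP5, at 0.29 (0.30 without HHcy 6), and FKBP4, at 0.11 (-0.017 without HHcy 6), whose other tested probe set had -0.95.

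Genes that work with HSP70 lay on both sides of 0. Of 7 nucleotide exchange factors and ligases, 2 lay above 0 and 5 below, with a median log2 fold change of -0.33, and of -0.12 without HHcy 6. The lowest were BAG1, at -0.73 (-0.81 without HHcy 6), and BAG5, at -0.60 (-0.61 without HHcy 6). BAG5 had 729.9, 759, 670.0 and 782 in HHcy dogs, against 1065, 1166, 959 and 1334 in control dogs (limma adjusted p 0.214). Every HHcy value lay below every control, as for 3.89% of all probe sets, while the other BAG5 probe set tested had a log2 fold change of -0.068. BAG3, the partner of HSPB8, had the highest log2 fold change, 0.24 with all arrays and 0.57 without HHcy 6. The ubiquitin ligase STUB1 was next, at 0.060 (0.064 without HHcy 6). Of 7 J-domain co-chaperones, which hand clients to HSP70, 5 lay above 0 and 2 below, with a median of 0.23, and of 0.14 without HHcy 6. DNAJB14, at 0.83 (0.80 without HHcy 6), and DNAJC8, at 0.54 (0.57), were the highest. The other tested DNAJC8 probe sets had 0.88 and 1.32. DNAJB4, at -0.62 (-0.37), and DNAJC21, at -0.47 (-0.53), were the lowest, and the other DNAJC21 probe set tested had 0.27. The HSP110 gene HSPH1 had -0.14 (-0.081) and HSPA4 had 0.43 (0.55), the tested members of their list. Their other tested probe sets had -0.44 for HSPH1 and -0.084 for HSPA4.

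Chaperones of the endoplasmic reticulum and of mitochondria also had members on both sides of 0. Of 7 endoplasmic reticulum chaperones 5 lay above 0 and 2 below, with a median log2 fold change of 0.17, and of 0.37 without HHcy 6. They ran from the disulfide isomerase PDIA3, at -0.55 (-0.22 without HHcy 6), and HSP90B1, at -0.021 (-0.0094), to PDIA6, at 0.75 (0.54), and SDF2L1, at 0.76 (0.71). Of 7 mitochondrial chaperones and proteases 4 lay above 0 and 3 below, with a median of 0.023, and of 0.17 without HHcy 6. They ran from the protease subunit AFG3L2, at -0.42 (-0.48), and CLPB, at -0.11 (-0.24), to HTRA2, at 0.54 (0.37), and CLPX, at 0.56 (0.53). Other tested probe sets had -1.17 to -0.25 for AFG3L2 and 0.89 for HTRA2.

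In the cytosol, CCT chaperonin and prefoldin subunits fold or deliver actin and tubulin. Of 10 tested, 5 lay above 0 and 5 below, with a median log2 fold change of -0.066, and of 0.013 without HHcy 6. They ran from PFDN6, at -1.68 (-1.01 without HHcy 6), and PFDN1, at -0.72 (-0.30), to VBP1, at 0.53 (0.45), and CCT3, at 1.36 (1.30). The other tested PFDN1 probe set had -0.21. CCT3 had 268, 289, 238 and 223 in HHcy dogs, against 219, 71.4, 43.4 and 64.4 in control dogs (limma adjusted p 0.160). Every HHcy value lay above every control, as for 7.49% of all probe sets, but the other 3 tested probe sets of CCT3 had log2 fold changes of -0.46 to 0.55.

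No heat shock factor or regulator passed either. HSF1, the main stress-responsive factor, had 337, 479.8, 541 and 688 in HHcy dogs, against 686, 466, 464 and 617 in control dogs, values that overlapped fully, with a log2 fold change of -0.14 ± 0.28 (SE, limma adjusted p 0.804). Without HHcy 6 it was -0.13. HSF2 had the lowest log2 fold change of the 4 tested factors and regulators, -0.46 (-0.43 without HHcy 6). The deacetylase SIRT1 followed at -0.24 (-0.51), with 0.46 on its other tested probe set. The HSF1-binding protein HSBP1 was highest, at 0.035 (0.38), with -0.69 on its other tested probe set.

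Of 7 tested filament proteins and partners that small heat shock proteins guard, 4 lay below the control mean on HHcy 6 and 3 above it. The list had a median log2 fold change of -0.95 with all arrays and -0.051 without HHcy 6. Desmin, DES, had 1648, 99.6, 3987 and 3321 in HHcy dogs, against 4016, 4370.0, 3657 and 2840.3 in control dogs. HHcy 6 was the lowest array, and the log2 fold change was -1.52 ± 0.86 (SE, limma adjusted p 0.370) with all arrays and -0.39 without HHcy 6. The giant filament protein titin, TTN, lay at 556 on HHcy 6, with a log2 fold change of -1.34 with all arrays and -0.10 without HHcy 6, and its other 15 tested probe sets had -1.92 to 0.46. ACTN2 and ACTC1 (itself one of the cardiomyocyte markers) were the other two low on HHcy 6, by -4.81 and -4.07 log2 units. The ACTN2 log2 fold change was -1.09 with all arrays, and -2.10 and -1.81 on its other tested probe sets.

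Vimentin, VIM, the intermediate filament of fibroblasts and other non-muscle cells, had 3808, 15418, 5859 and 3951 in HHcy dogs, against 3897, 6253, 3927 and 2861 in control dogs. HHcy 6 was the highest array, and VIM had the highest log2 fold change of the list, 0.58 with all arrays and 0.13 without HHcy 6. Filamin C, FLNC, was next, at 0.13, and had -0.051 without HHcy 6. FLNC and FLNA also lay above the control mean on HHcy 6, by 0.66 and 1.37 log2 units. HSPB3, the one further small heat shock protein tested, had 10444, 191, 10622 and 9773 in HHcy dogs, against 10658, 6634, 9216 and 12407 in control dogs. HHcy 6 was the single low array, and the HSPB3 log2 fold change was -1.28 ± 1.03 (SE, limma adjusted p 0.514) with all arrays and 0.12 without HHcy 6. The other tested HSPB3 probe sets had -1.48 and -1.34 with all arrays.

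**Figure D5:**
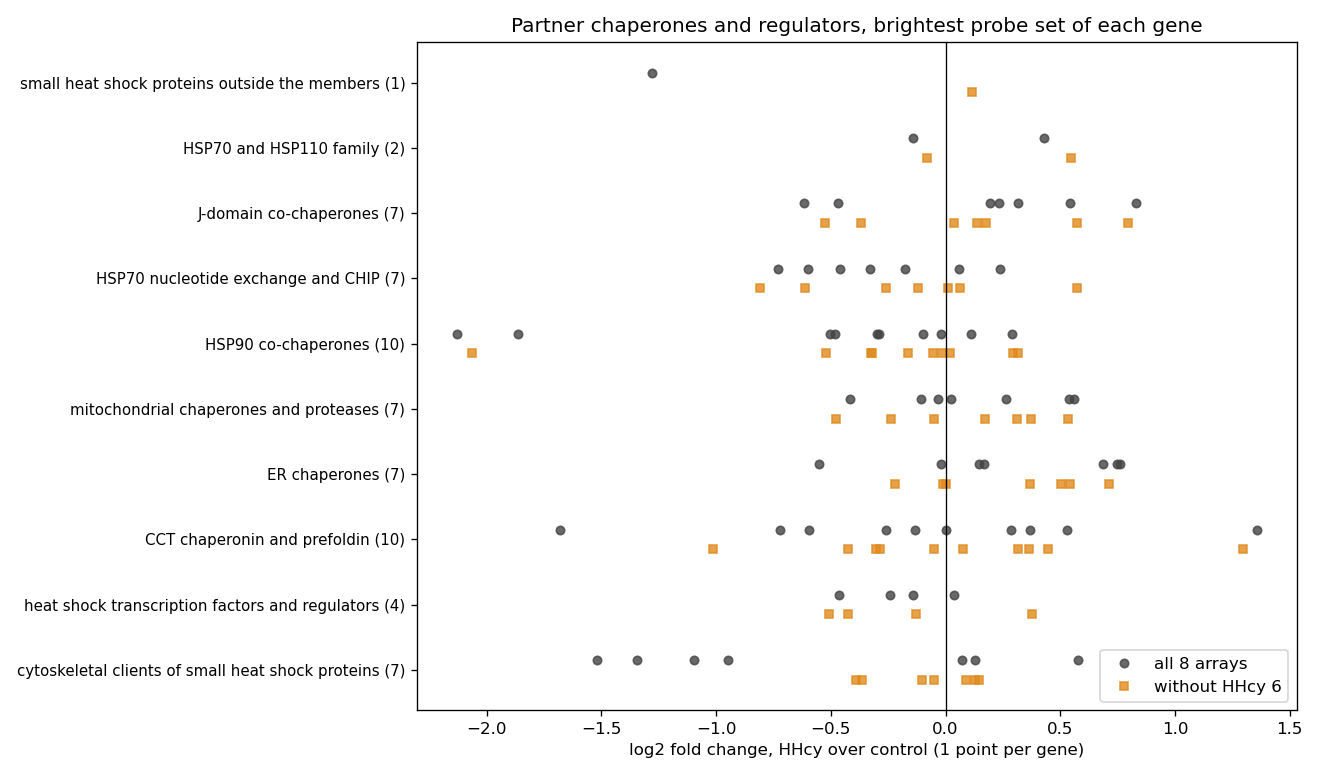
Log2 fold change of HHcy over control (x axis) for 62 partner genes in 10 lists (y axis, number tested in brackets), 1 point per gene, from all 8 arrays (grey circles) and without HHcy 6 (orange squares). None passed the adjusted test. The list of cytoskeletal clients has a median of -0.95 with all arrays and -0.051 without HHcy 6, and PPP5C is the grey point at -2.13.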

How the data were processed

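Cardiac total RNA of 8 dogs was measured on 1 Affymetrix canine array each, and groups came from the sample titles. The values that the authors deposited are linear intensities, 1 for each probe set. MAS5 is the tool named, per the submitters' processing notes, with no version given. Their mean with 2% left out at each end lay between 500.08 and 500.10 on every array, and they were used without rescaling. The labels speak of separate dogs and name no batch. Gene symbols come from the platform annotation, and the 21 probe sets all have a RefSeq entry under their gene identifier. Probe, gene and protein sequences were not used here.

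A pseudocount of 24, the 20th percentile of the values, was added before log2, which understates the folds of dim probe sets. After 77 control probe sets and the dimmest 40% by mean were left out, 14301 probe sets were fitted in R (version 4.3.3) by limma (version 3.58.1) through lmFit and eBayes with an intensity trend, Benjamini-Hochberg adjustment and a threshold of 0.05. The procedure was tested on simulated data.

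All probe sets of the 10 genes are reported, the brightest being the one of highest mean log2 value over all arrays. Partner genes named are the 2 highest and the 2 lowest of each list. The genes, lists and alternatives were chosen with earlier results of these data known. Alternatives covered scaling, pseudocount, filter, variance model, array weights, arrays left out and the 3'/5' ratio as a term in the fit.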

Additional observations from a re-analysis of the deposited data

Results flagged for a closer look

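Among the 40 groups of 4 log2 values looked at (20 probe sets, HHcy and control), 6 held an array whose gap to its nearest neighbour was past Dixon's 95% critical value for 4 values. Chance alone flags about 1 in 20 groups, and the probe sets share arrays. On HHcy 6 the low values were 303 for HSPB7, 5006 for the brightest HSPB8 probe set, and 3799.9 and 2169 for the CRYAB probe sets 1594631_s_at and 1586077_s_at. On control 1 the CRYAB probe set 1594631_s_at was high, at 26889.8, while the other 3 controls lay within 19363 to 19537. On control 2 the brightest HSPD1 probe set was low, at 6217. Each of these results is given in the report with and without HHcy 6.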

How the results depend on the processing

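No setting tried brought a heat shock protein probe set past the threshold, and the count of 0 held in all of them. The count over all probe sets, 14, was 7 with quantile scaling, 22 with median scaling, 9 with the dimmest 60% left out, 76 with array weights, 5 without HHcy 5 and HHcy 6, 5 with the 3'/5' ratio as a term in the fit, and 3 to 31 when single arrays were left out. Of these it was 5 without HHcy 5 and 31 without HHcy 8, and 9, 3, 4 and 3 without control 1, 2, 3 and 4. The difference in the log2 3'/5' ratio (HHcy minus control), 2.48, was 1.501 without HHcy 6 and up to 3.17 without HHcy 8, where the exact permutation p was 0.0286.

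Several log2 fold changes changed sign, among them HSPB7 (-1.25 with all arrays) and the bright probe sets of CRYAB and HSPB8, and the cause was not tested. With median scaling, which moved the median of all probe sets to -0.18, the log2 fold changes were -0.36 for HSPD1, -0.17 for HSP90AA1 and -0.27 for HSP90AB1. With array weights CRYAB (1594631_s_at) had 0.066 and HSPA8 0.14. Without HHcy 5 and HHcy 6 they were 0.092 for HSPB1, 0.21 for HSPB7, 0.048 for HSPB8, 0.17 and 0.091 for the bright CRYAB probe sets and 0.26 for HSPA8. With the 3'/5' term they were 0.29 for HSPB1, 0.81 for HSPB7, 0.38 and 0.25 for the bright HSPB8 probe sets, 0.57 and 0.62 for those of CRYAB and 0.39 for HSPA8. Without control 2 and HHcy 6, chosen after seeing the data, they were 0.060 for HSPB8, 0.18 and 0.087 for CRYAB, 0.18 for HSPA8 and -0.0071 for HSPD1.

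When single arrays were left out, the log2 fold changes ran from -0.61 to 0.047 for HSPB1, -0.70 to 0.012 for HSPB8, -0.71 to 0.22 and -1.10 to 0.097 for CRYAB, -0.19 to 0.21 for HSPA8 and -0.10 to 0.10 for HSPD1. HSPB6, HSPE1 and the dim probe sets of HSPB8, CRYAB, HSPA8, HSPD1 and HSP90AB1 kept their direction in every setting tried. No paired analysis was possible because the groups share no replicate number.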

Other observations

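Several probe sets of heat shock and partner genes were too dim to test. A second HSPE1 probe set, 1588742_at, had signals of 293, 106, 39.2 and 160.5 in HHcy dogs, against 16.2, 8.76, 94.8 and 39.3 in control dogs. All 4 HHcy values lay above the control mean on the log2 scale, the reverse of the brightest HSPE1 probe set, but control 3 lay above HHcy 7. The endoplasmic reticulum chaperone HSPA5 (BiP) had 23.8, 74.0, 23.99 and 69.4 in HHcy dogs, against 36.9, 30.8, 35.05 and 94.7 in control dogs, values close to the pseudocount of 24.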
